A study of Rattus norvegicus with 2 samples.

Results

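Genes of collagens, of the proteins that bind and cross-link them, and of the fibroblasts that make them were read in the esophagus of rats dosed with OSU-HDAC42, an inhibitor of histone deacetylases, and of vehicle-dosed rats. The set holds 39 genes, chosen by name with earlier results of these data known. Each is represented by its brightest probe set (highest mean over the arrays) among those annotated to that gene alone. All 39 were measured, out of 14217 genes on the array. The rats were male Sprague-Dawley, an outbred laboratory strain, and 5 to 6 weeks old by the labels. They received 7 gavages, either of OSU-HDAC42 at 50 mg/kg, to a total of 350 mg/kg, or of vehicle, and the esophagi were collected on day 15, which was 24 hours after the last one. The labels name Trizol for the RNA extraction and the series text names a column kit. Each group had 1 Affymetrix Rat Genome 230 2.0 array and the labels do not say how many rats it stands for, so the spread between animals is unknown and no difference carries a p-value. Whole tissue was profiled, and in such a sample more cells of a type and more RNA per cell cannot be told apart.

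The connective tissue of the esophagus lies beneath the epithelium and between the muscle bundles, and fibroblasts make most of it. They secrete fibrillar collagens as helical procollagen, which a chaperone in the endoplasmic reticulum holds in shape and which lysyl oxidases cross-link after its assembly into fibrils outside the cell. Small proteoglycans set the width and spacing of the fibrils, elastin on a scaffold of fibrillin gives recoil, and matrix metalloproteinases and their tissue inhibitors govern turnover.

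The matrix genes were higher in the OSU-HDAC42 sample more often than lower, and the differences were mostly small. Higher values were found for 30 of the 39 and lower values for 9, and the median log2 difference (OSU-HDAC42 minus vehicle) was 0.24. Over all 14217 genes, 39.7% were higher and the median was 0.00. These include 2320 genes with intensities under 16 on both arrays, which were raised to 16 and so are equal by construction. No matrix gene was among them. Lox, the enzyme that cross-links collagen and elastin, and Thy1, a surface glycoprotein of fibroblasts, were at least 2-fold higher. So was the fibril-associated collagen gene Col12a1, but on 1 dim probe set only. No matrix gene was 2-fold lower. Fibroblast surface receptors, proteoglycans and the genes for chaperoning and cross-linking collagen had the largest group medians (0.93, 0.55 and 0.55). Not every gene of these groups shared this, as Vim (0.15), Lum (0.056) and Loxl1 (-0.013) differed little. Outside them, Col6a1 (0.72) and Col4a2 (0.60) differed by more than those medians of 0.55. Fibronectin, periostin, SPARC and fibrillin-1 stood near 0 or slightly lower, and elastic fibre genes were split.

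An expression floor, the median brightness of all probe sets (intensity 49.1), was reached on at least 1 array by 36 of the matrix genes and by 9560 genes in all. Loxl1, Thbs2 and Eln stayed under it. Col12a1 and Pdgfrb passed it through the OSU-HDAC42 array alone, and the other 34 passed it on both arrays. At least 2-fold higher were 3 of the 36, Col12a1 among them, against a background of 1.88% of all genes above the floor. At least 2-fold lower were 0, against 3.17%. Differences of at least 1.5-fold were found for 9 genes in the higher direction, where the background was 7.58%. Col12a1 and Pdgfrb were among these 9. In the lower direction there were 0, and the background was 10.9%. By direction alone, 28 of the 36 were higher (77.8%), again with Col12a1 and Pdgfrb, against 46.7% of all genes above the floor. The other 8 were lower, against 52.8%.

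**Figure D1:**
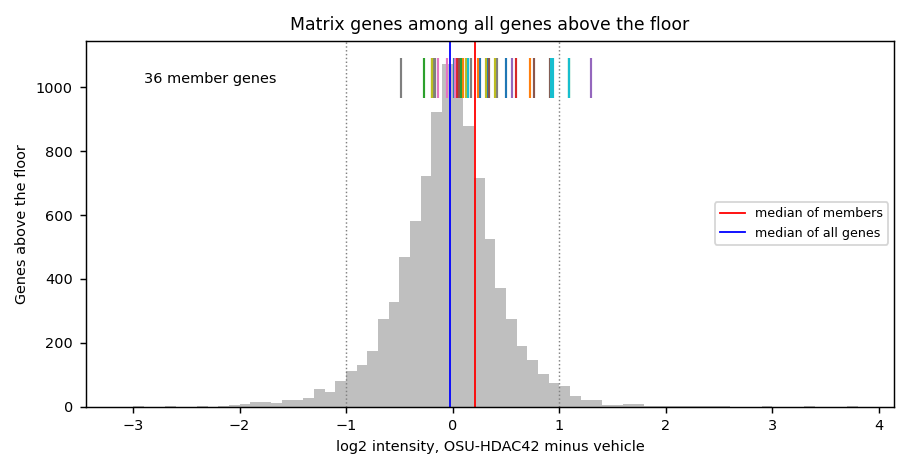
Histogram of the log2 difference (OSU-HDAC42 minus vehicle, x axis) of the 9560 genes above the floor (y axis, genes per bin), with a coloured tick for each of the 36 matrix genes above the floor and lines at both medians. The matrix genes reach from -0.48 to 1.30 with a median of 0.21, and all genes have a median of -0.027.

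The only error that these arrays allow comes from how far the probe sets of a gene differ from each other, called the spread between probe sets here. Over 3643 pairs of probe sets above the floor in 2126 genes, the log2 differences of a pair lay 0.41 apart (root mean square). This covers probe noise and not the spread between animals. Being a gap within a pair, it holds the error of both values and is wider than the error of a single one. It serves below as a yardstick for single differences and not as a test. The matrix genes had 67 probe sets, of which 52 were above the floor, 41 of them higher and 11 lower. Apart from the brightest probe set of each gene, 16 further probe sets were above the floor, and 12 of them went the same way as the brightest one. Among them, a set of Thy1 and a set of Timp3 passed the floor through the OSU-HDAC42 array alone. Of 13 genes with several probe sets above the floor, 9 were higher on all of these and 4 went both ways, namely Col6a2, Col15a1, Col4a1 and Fbn1. The same counts were not made over the probe sets of all genes, so these have no background to be read against. Within the 20 pairs of these 13 genes the gap was 0.35 (root mean square), against 0.41 over all genes. Among genes with a mean intensity over 1000, the log2 differences of all 2266 such genes had an SD of 0.30, and between the floor and 100 the SD was 0.60, so a difference of a given size weighs less for a dim gene.

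**Figure D2:**
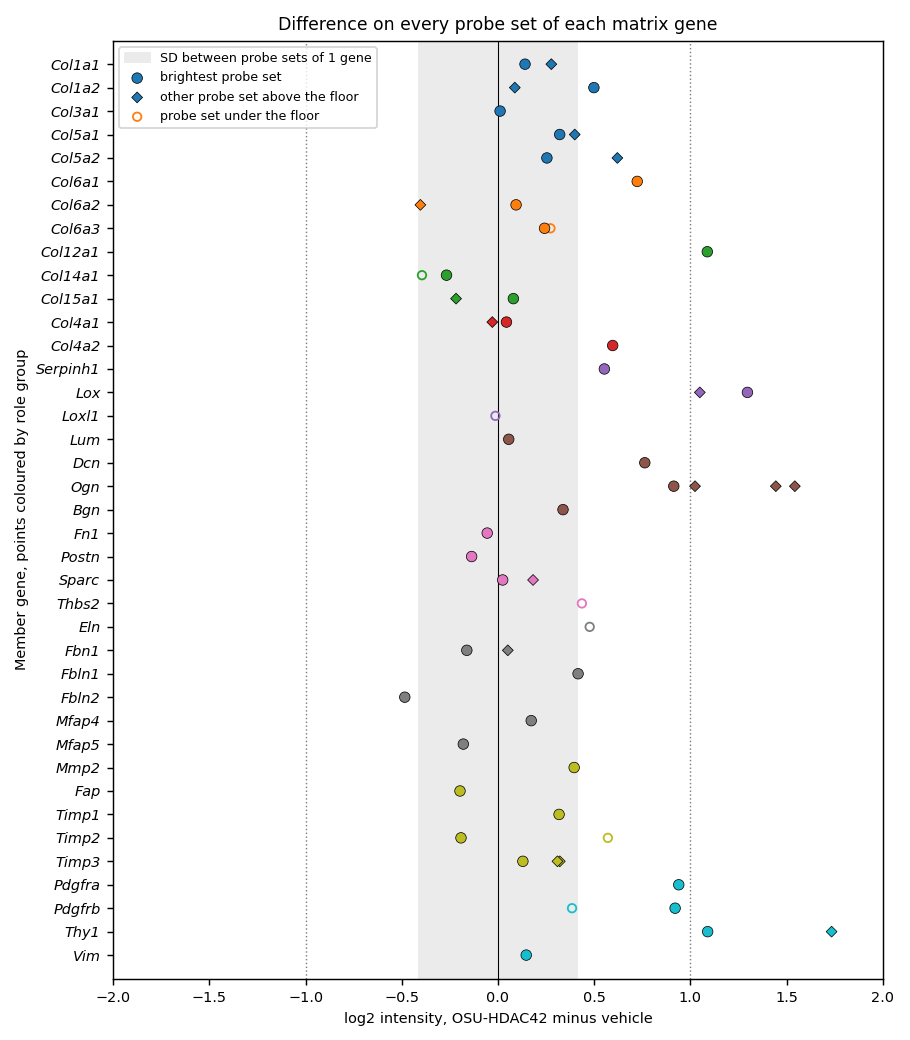
Log2 difference (OSU-HDAC42 minus vehicle, x axis) on every probe set of each matrix gene (y axis), with filled circles for the brightest probe set, diamonds for others above the floor and open circles for those under it. Probe sets under 16 on both arrays are not drawn, the grey band is the spread between probe sets of 1 gene (0.41) and dotted lines mark 2-fold. Every probe set above the floor of Lox, Ogn and Thy1 lies to the right of the band. The dimmer set of Thy1 passed the floor through the OSU-HDAC42 array alone.

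Fibrillar collagens form the load-bearing fibrils of the connective tissue, and all 5 were higher, none by 2-fold, with a median of 0.25. Col1a1 and Col1a2 encode the chains of type I collagen. Col1a1 had an intensity of 3888 after OSU-HDAC42 and 3527 after vehicle, a log2 difference of 0.14, and values below are given in that order. Col1a2 stood at 4689 against 3319, a difference of 0.50, but its other probe set stood at 3222 against 3033 and differed by only 0.087. The chains of type I collagen therefore differed from each other by no more than the probe sets of Col1a2 did. Col3a1, the chain of the thin type III fibrils, stood at 4942 against 4905, a difference of 0.011 that turned to -0.015 under quantile normalization. Type V collagen nucleates fibrils and limits their width, and Col5a1 stood at 529 against 423 (0.32) and Col5a2 at 3321 against 2785 (0.25). The further probe sets of Col5a1 and Col5a2 were higher as well, by 0.40 and 0.62.

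The upstream region of Col1a2 is shown because it holds matches to both a CCAAT and a TATA box. It was taken from the RefSeq promoter table of the GRCr8 rat assembly (chr4:33518307-33518406, plus strand, 5′ to 3′), and covers bases -250 to -151 from the start listed there. That start appears to be the coding start and not the transcription start, so these positions are not distances from where transcription begins. Capitals mark a CCAAT box (CCAAT on either strand, here read as ATTGG) and a TATA box (TATAAA on either strand).
Col1a2: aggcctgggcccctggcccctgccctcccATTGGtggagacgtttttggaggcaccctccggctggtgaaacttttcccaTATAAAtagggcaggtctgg

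Collagen VI forms beaded microfilaments around cells. Col6a1 stood at 872 against 528, a log2 difference of 0.72, while Col6a2 stood at 566 against 531 (0.094) and Col6a3 at 447 against 378 (0.24). The other probe set of Col6a2 went the opposite way, at 275 against 364 (-0.40). The chains of collagen VI assemble together, and on these arrays only Col6a1 lay beyond the spread between probe sets in the higher direction. The 250 bases upstream of Col6a1 (GRCr8, chr20:11905440-11905689, plus strand) are shown as those of the chain that differed, with a match to the AP-1 site (TGANTCA on either strand) in capitals.
Col6a1: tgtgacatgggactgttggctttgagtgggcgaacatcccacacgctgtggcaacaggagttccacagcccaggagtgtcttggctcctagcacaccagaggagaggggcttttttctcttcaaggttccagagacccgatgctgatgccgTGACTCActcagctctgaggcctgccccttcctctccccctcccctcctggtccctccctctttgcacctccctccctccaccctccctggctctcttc

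The fibril-associated collagens and the multiplexin differed among themselves. Col12a1, which bridges fibrils and is made where tissue bears tension, stood at 72.5 against 34.1, 2.13-fold higher. Its 2 other probe sets were under 16 on both arrays, and the value on the vehicle array lay under the floor, so this difference rests on 1 dim probe set and was 0.36 on the log2 scale with the mean of its probe sets. Col14a1, a relative of Col12a1 with a similar place on the fibril, went the other way at 222 against 267 (-0.27). Col15a1, a collagen near basement membranes, stood at 1923 against 1819 (0.080) and its other probe set differed by -0.22.

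Collagen IV is the network collagen of basement membranes, which lie under epithelium and around vessels, muscle cells and nerves. Col4a1 stood at 133 against 129 (0.044), and its other probe set at 109 against 111 (-0.030). Col4a2 stood at 2048 against 1355 (0.60). The genes lie head to head, and 76 bases separate their RefSeq starts (GRCr8, chr16:84885521-84885596, plus strand, reading towards Col4a1). Capitals mark a GC box (GGGCGG on either strand). Neither TATAAA nor CCAAT was found between the starts.
Col4a2-Col4a1: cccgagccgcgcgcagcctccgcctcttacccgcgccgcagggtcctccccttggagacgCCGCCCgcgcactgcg
The genes on either side of this stretch differed between the samples by 0.60 and 0.044, and these values lie further apart than the spread between probe sets.

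**Figure D3:**
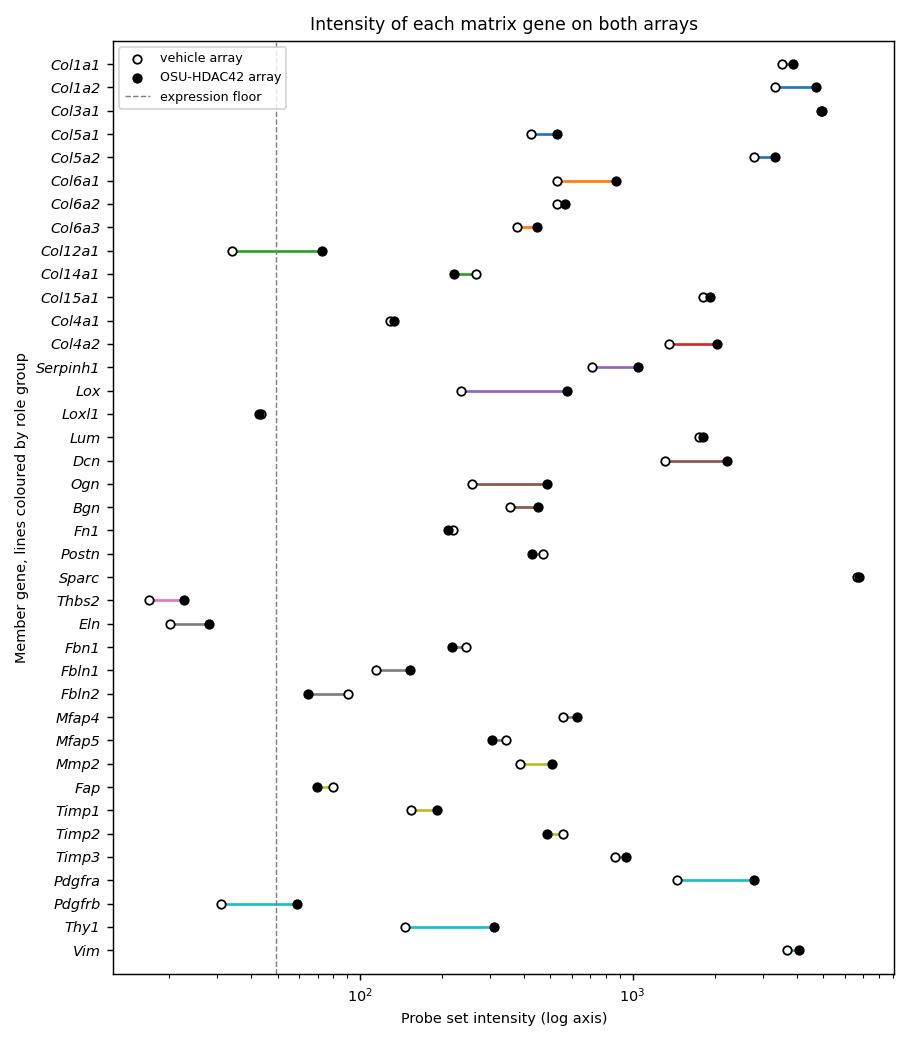
Intensity (log axis) of the brightest probe set of each of the 39 matrix genes on the vehicle array (open circle) and on the OSU-HDAC42 array (filled circle), with lines coloured by role and the expression floor dashed. Lox runs from 234 to 575, Pdgfra from 1456 to 2793, and Col3a1 and Sparc hold nearly equal intensities on both arrays.

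Of the genes for folding and cross-linking collagen, Lox had the largest difference of all the matrix genes on their brightest probe sets. With the mean of all probe sets it stood at 1.17, below Thy1 (1.41) and Ogn (1.23). Its brightest probe set stood at 575 against 234 (2.46-fold, log2 1.30), and its other probe set at 292 against 141 (2.07-fold). Both probe sets were thus past 2-fold. Serpinh1, also known as HSP47, is the chaperone of procollagen, and it stood at 1044 against 712 (0.55). That probe set carries the suffix by which Affymetrix marks sets that can match several transcripts, and the other probe set of Serpinh1 was under 16 on both arrays. Loxl1, the lysyl oxidase relative that acts on elastin, was under the floor at 42.8 against 43.2 (-0.013), and was higher by 0.0080 with the arrays centred on their medians.

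Small leucine-rich proteoglycans coat collagen fibrils, and all 4 were higher with a median of 0.55. Ogn, which encodes osteoglycin, was higher on each of its 4 probe sets. The brightest stood at 486 against 258 (1.88-fold) and the second at 482 against 237 (2.03-fold), and the dimmer sets stood at 212 against 72.9 (2.91-fold) and at 174 against 63.9 (2.72-fold). The brightest probe set, which represents the gene here, thus had the smallest difference of the 4, and 3 of the 4 were past 2-fold. Dcn, the gene of decorin, stood at 2223 against 1310 (0.76). Bgn, the gene of biglycan, stood at 449 against 355 (0.34), within the spread between probe sets. Lum, the gene of lumican, stood at 1814 against 1746 (0.056). Decorin and lumican both bind type I collagen fibrils, and their genes differed by unequal amounts.

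The sequence upstream of Ogn, the gene higher on the most probe sets, spans 250 bases (GRCr8, chr17:15258996-15259245, minus strand). The capitals are TATAAA read on both strands, as 2 matches that overlap.
Ogn: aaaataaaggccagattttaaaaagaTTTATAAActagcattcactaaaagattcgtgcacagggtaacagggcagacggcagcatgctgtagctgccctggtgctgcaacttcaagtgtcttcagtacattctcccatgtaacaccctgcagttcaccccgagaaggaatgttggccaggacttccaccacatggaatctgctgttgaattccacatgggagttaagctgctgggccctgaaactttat

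Cell-binding and matricellular glycoproteins were close to equal. Fn1, the gene of fibronectin, stood at 211 against 220 (-0.056). Postn, the gene of periostin, which is known to be induced in fibroblasts by TGF-beta, stood at 428 against 471 (-0.14). Sparc, a collagen-binding glycoprotein, stood at 6758 against 6646 (0.024), with its other probe set at 0.18. Thbs2, a thrombospondin that restrains vessel growth, was under the floor at 22.7 against 16.8. None of these 4 genes differed by more than 0.44.

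Elastic fibre genes were split, with 3 of 6 higher. Of the 5 above the floor 2 were higher, with a median of -0.16. Fbln2, which encodes fibulin-2, stood at 64.7 against 90.6 and was the lowest of the matrix genes at -0.48. Fbn1, the fibrillin that forms the microfibril scaffold, stood at 218 against 244 (-0.16), but its other probe set was higher by 0.051. Fbln1, encoding fibulin-1, stood at 152 against 114 (0.42). The fibulins thus went in opposite directions, each by slightly more than the spread between probe sets. Fbln1 fell to 0.21 with the mean of its probe sets, by construction, since its other probe set was under 16 on both arrays. Fbln2 is dim, and all genes between the floor and 100 had an SD of 0.60. The microfibril-associated proteins Mfap4 and Mfap5 stood at 625 against 554 (0.17) and at 304 against 345 (-0.18). Eln, the gene of elastin itself, was under the floor at 27.9 against 20.1.

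Matrix proteases and their inhibitors differed little. Mmp2, the gelatinase made by fibroblasts, stood at 508 against 386 (0.40). Fap, a serine protease of activated fibroblasts, stood at 69.4 against 79.5 (-0.20). Of the inhibitors, Timp1 stood at 192 against 154 (0.32) and Timp2, which also takes part in activating the MMP2 protein, at 485 against 554 (-0.19). Timp3, which binds to the matrix, stood at 945 against 864 (0.13), and its other probe sets above the floor at 0.32 and 0.31. The last of these sets passed the floor through the OSU-HDAC42 array alone. All 5 genes lay within the spread between probe sets, which is wider than the error of a single difference.

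The receptor and surface genes of fibroblasts were all higher, with a median of 0.93 over 4 genes, which was 0.66 with the probe set of median difference. Pdgfra, the receptor that marks most fibroblasts, stood at 2793 against 1456 (1.92-fold, log2 0.94) on its only probe set. Pdgfrb, the related receptor of fibroblasts and mural cells of vessels, stood at 58.9 against 31.1 (1.89-fold), on a probe set with the same suffix as that of Serpinh1. A dimmer probe set under the floor differed by 0.38. Thy1 stood at 311 against 146 (2.13-fold), and its other probe set at 126 against 38.0 (3.33-fold). The latter set passed the floor through the OSU-HDAC42 array alone. Vim, the gene of vimentin, the intermediate filament of mesenchymal cells, stood at 4078 against 3684 (0.15). Vimentin alone of these 4 lay within the spread between probe sets.

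The 250 bases upstream of Pdgfra (GRCr8, chr14:33408517-33408766, minus strand) are shown as those of a defining receptor of fibroblasts. Capitals mark a CCAAT box, read as ATTGG, and an AP-1 match.
Pdgfra: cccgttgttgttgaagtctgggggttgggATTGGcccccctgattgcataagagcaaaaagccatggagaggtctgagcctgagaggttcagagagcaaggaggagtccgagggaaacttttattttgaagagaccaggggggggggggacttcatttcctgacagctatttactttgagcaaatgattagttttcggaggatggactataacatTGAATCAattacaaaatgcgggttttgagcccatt

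RefSeq promoter entries matched 23 of the 39 genes. In the 250 bases upstream of the start, CCAAT was present in 8 of the 23 and in 34% of 33469 promoters of all genes, GGGCGG in 9 and 30.5%, TATAAA in 4 and 12.9%, and TGANTCA in 2 (Col6a1 and Pdgfra) and 6.34%. The CArG box, to which serum response factor binds, was found in 0 of the 23 and in 1.5% of all promoters. The windows of Col4a1 and Col4a2 overlap and share letters. These matches describe letters in a window and say nothing of whether a factor binds there.

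Other genes of the matrix pathway, taken from 6 lists by function, were closer to an even split. Of 158 listed genes 136 were measured and 87 were above the floor, 47 of these higher and 39 lower, with a median of 0.087. At least 2-fold higher were 6 of the 87, against 1.88% of all genes above the floor. At least 2-fold lower were 2, against 3.17%. Of the 87, 82 passed the floor on both arrays. The 8 other collagens above the floor were evenly split, 4 higher and 4 lower. Among them Col8a2, a short-chain network collagen, stood at 159 against 81.9 (0.96) and Col4a6, a chain of epithelial and smooth muscle basement membranes, at 153 against 81.8 (0.90).

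Genes for modification and processing of collagen had 6 higher and 8 lower among 14 above the floor. Plod3, a lysyl hydroxylase of collagen, stood at 48.4 against 111, 2.30-fold lower, and passed the floor through the vehicle array alone. P3h4, a partner of the collagen-modifying enzymes, stood at 168 against 83.6, 2.01-fold higher. The other matrix proteins had 16 higher and 12 lower of 28, and both genes past 2-fold were higher. These were Tnc, which encodes tenascin-C, at 321 against 142 (2.26-fold), and Vcan, which encodes the large proteoglycan versican, at 81.4 against 39.6 (2.06-fold). Vcan passed the floor through the OSU-HDAC42 array alone.

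Of 13 other proteases and inhibitors above the floor, 8 were higher, 4 lower and 1 equal. Reck, a membrane-anchored inhibitor of matrix metalloproteinases, stood at 370 against 162 (2.28-fold higher) and Mmp15 at 57.5 against 130 (2.25-fold lower). Mmp11 stood at 92.9 against 44.1 (2.11-fold higher) and passed the floor through the OSU-HDAC42 array alone. TGF-beta and PDGF signalling genes, which include the growth factors known to drive matrix synthesis, had 5 higher and 6 lower of 11, none by 2-fold, and a median of -0.047. Tgfb2 stood at 173 against 113 (0.61) and Tgfb3 at 40.8 against 66.5 (-0.70), the latter above the floor on the vehicle array alone. Of collagen and matrix receptors, 8 of 13 were higher, and Itgb3, an integrin subunit, stood at 387 against 183 (2.11-fold), with Itga8, another integrin subunit, at 0.63.

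**Figure D4:**
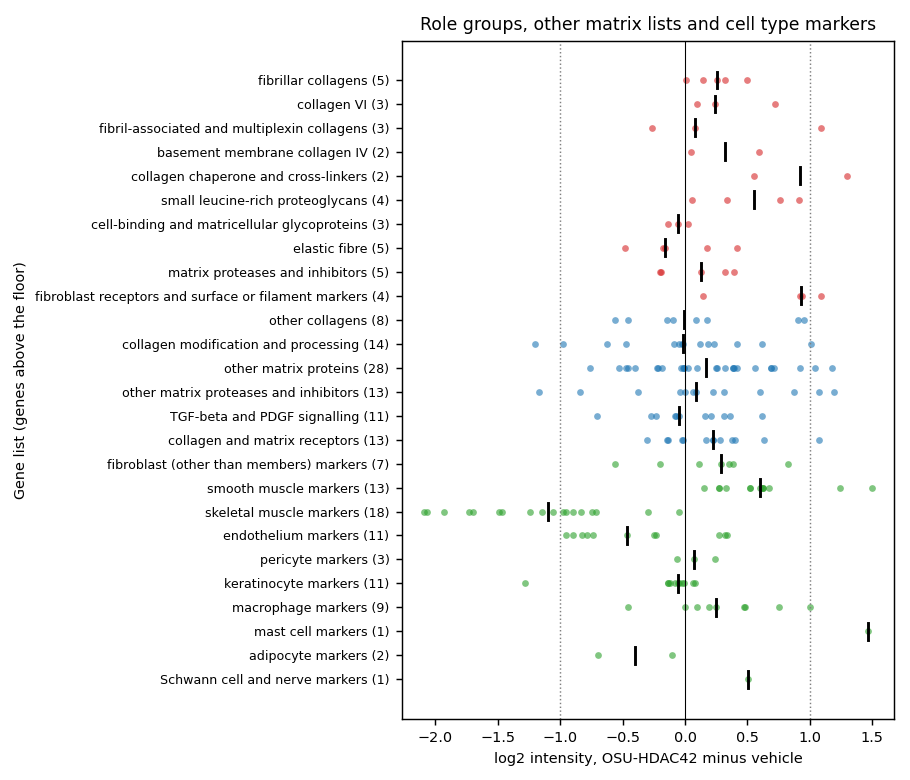
Log2 difference (OSU-HDAC42 minus vehicle, x axis) of each gene above the floor in the role groups of the matrix genes (red), other matrix lists (blue) and cell type marker lists (green), with the number of genes in brackets and a black bar at each median. The receptor group has a median of 0.93, smooth muscle markers are all to the right of 0 and skeletal muscle markers all to the left.

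The tissue label and the cell types were checked by markers. The esophageal keratins Krt13 and Krt4 had intensities of 14438 and 11052 after OSU-HDAC42 and of 14947 and 11517 after vehicle. The defining fibroblast genes Pdgfra, Col1a1, Col1a2, Dcn, Lum and Thy1 were above the floor on both arrays. Fibroblast markers outside the 39 genes had 5 higher and 2 lower of 7 above the floor, with Twist1 at 0.83 and Dpt at -0.56 (its other probe set at 0.44), and their summed intensity was 7375 against 6321. That of the 39 matrix genes was 48538 against 40735 (1.19-fold).

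Markers of other cell types also differed. All 13 smooth muscle markers were higher, with a summed intensity of 26034 against 18501 and no marker under 16, and Synpo2 and Tagln were 2.83-fold and 2.36-fold higher. Further probe sets of Synpo2 ranged from -0.44 to 1.45. All 18 skeletal muscle markers were lower, with a sum of 19256 against 37553 and none under 16, and Actn3, Ampd1, Ttn and Atp2a1 differed by -2.09, -2.07, -1.94 and -1.73. The part of these muscle layers in the matrix differences was not tested. Whether the mucosa or the full wall was sampled is not stated.

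Endothelial markers were lower in 8 of 11 cases (sum 3449 against 3636), with Vwf at -0.95 and Ramp2 at -0.90. Vwf passed the floor through the vehicle array alone. Pericyte markers summed to 952 against 955, with Cspg4 at 0.24 and Rgs5 at 0.075. Macrophage markers were higher in 7 of 9 cases above the floor (sum 1990 against 1699), with Mrc1 at 1.00 and Cd163 at 0.76. Keratinocyte markers were lower in 9 of 11 cases (sum 72439 against 75057), with Itgb4 at -1.28 and Dsp at -0.14 (its other probe set at -0.67). Of 7 mast cell markers, only Cpa3 was above the floor (1.46), through the OSU-HDAC42 array alone, and 3 were under 16 on both arrays. For adipocytes 2 of 7 were above the floor, Fabp4 at -0.70 and Lipe at -0.11, and for Schwann cells and nerve 1 of 5, Pmp22 at 0.51. No cartilage marker reached the floor, and 3 of 5 were under 16 on both arrays. Which share of the matrix differences goes with these cell types was not tested.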

How the data were processed

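Per the series design text, RNA was hybridised to Affymetrix 230 2.0 arrays. The deposited values are intensities on a linear scale, 1 per probe set and array, a unit read from the values. The tools listed per the submitters' processing notes are GCOS and RMA, without a stated role, and how the arrays were scaled to each other is not given in the sources used here. Depth has no meaning for arrays, and their number, 1 per group, limits the precision.

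Intensities under 16 were raised to 16 (28.4% of probe sets after OSU-HDAC42, 29.2% after vehicle) and log2 was taken, with no further normalization. Of 31042 non-control probe sets, 20826 had 1 gene symbol. Each gene used its brightest probe set. Every matrix gene was named. Of each other list, the genes past 2-fold (at most 4), or where fewer than 2 were, the 2 with the largest differences above the floor, were named, besides the defining fibroblast markers. The 39 genes, the lists and the tests were chosen with earlier results of these data known. Of 266 other listed genes, 236 were measured, 2 through an older symbol. Scripts (Python 3.11.15, numpy 2.4.6, pandas 2.3.3) were tested on simulated data. Alternatives covered scaling, raised values, choice of probe set, floor and fold threshold.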

Additional observations from a re-analysis of the deposited data

How the results depend on the processing

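Across alternatives of scaling, raised values and probe set choice, 27 or 28 of 36 matrix genes above the floor were higher, apart from 26 of 34 with the probe set of median difference, and 23 of 26 with the floor at the 75th percentile of brightness (intensity 277). The median of the matrix genes was 0.15 when intensities under 32 were raised to 32, against 0.24 as reported, since Thbs2 and Eln then have no difference by construction. It was 0.17 to 0.26 under the other alternatives. The 2-fold threshold gave 3 higher genes, the 1.5-fold threshold 9 and the 3-fold threshold 0, by construction. With the mean or the median of all probe sets 3 genes were again past 2-fold, but Ogn stood in place of Col12a1, which stood at 0.36 and 0, and Pdgfrb stood at 0.44 and 0.38. The other probe sets of Col12a1 and the dimmest of Pdgfrb were under 16 on both arrays and so hold no difference by construction. With the higher floor, 2 were past 2-fold, Lox and Thy1. Among values of single matrix genes under alternatives, 306 lay within 0.41 of the reported value and 6 did not. Many of these could not move, so the count is no measure of stability. With no intensities raised every value stays the same, as no brightest set of a matrix gene was under 16. Genes with 1 probe set cannot change with the choice of probe set. None changed with the probe set brightest on the vehicle array. Of the medians of gene lists, 5 moved by more than the error of a median at that spread and list size. Those of mast cell markers (0.51 with no intensities raised) and fibroblast receptors (0.66 with the probe set of median difference) moved most among them. The sign turned for Col3a1 (-0.015, quantile), for Loxl1 (0.0080, centred, and 0.0078, quantile) and, with the mean of all probe sets, for Col6a2 (-0.15), Col15a1 (-0.069) and Timp2 (0.19). The largest shift of the median of all genes was 0.021, with the arrays centred. Taking the probe set brightest on the vehicle array was chosen after seeing the data and left the 3 genes the same. No paired analysis was possible because only 1 array stands for a group. Low intensity limits Loxl1, Thbs2 and Eln, and 2320 genes were under 16 on both arrays.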

Other observations

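Several of the matrix genes are direct neighbours in the RefSeq gene table of GRCr8, with no protein-coding gene between them, and the neighbours differed by unequal amounts. Dcn and Lum, both of small leucine-rich proteoglycans, differed by 0.76 and 0.056. Col6a1 and Col6a2 differed by 0.72 and 0.094, and Col3a1 and Col5a2 by 0.011 and 0.25, the latter pair lying closer than the spread between probe sets. Col15a1 and its neighbour Tgfbr1 had opposite signs (0.080 and -0.084), as did Dpp4 and Fap (0.22 and -0.20), which have 1 gene between them. Each of these differences lay within the spread between probe sets. The other probe set of Col15a1 was lower (-0.22), as Tgfbr1 was. Ogn, at 0.91, lies beside the related proteoglycan gene Omd, which was under the floor at 32.4 against 21.7 (0.57). With 1 gene between, it is followed by Aspn, which stood at 236 against 180 (0.39), and all 3 were higher in the OSU-HDAC42 sample. None of these pairs was tested.

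The control probe sets for RNA integrity gave 3′ to 5′ ratios of 6.29 for beta-actin and 2.09 for GAPDH after OSU-HDAC42, against 7.76 and 2.32 after vehicle. Their part in the differences of the matrix genes was not tested.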
